A study of Mus musculus with 2 samples.

Results

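The gasdermin C and Car4 rich cells are small intestinal epithelial cells whose RNA held at least 6 UMIs (unique molecular identifiers, which count captured RNA molecules) of 8 genes summed. These genes were Gsdmc2, Gsdmc3, Cyp4f40, Ces1f, Slc28a3, Car4, Ms4a18 and Ptpn22. Cells with 5 or more UMIs of 4 genes of the villus tip (Nt5e, Ada, Slc28a2 and Clca4a) were left out, as were cells with 6 or more UMIs of Slc10a2, Plb1, Cubn, Grin2a, Slc34a2 and Fam151a. Of 12363 barcodes, 9872 passed minimums of 500 UMIs, 300 detected genes and 1000 peak counts. The 8 genes reached the minimum in 346 of these, 47 were left out, and 299 remained, or 3.03% of kept cells (95% exact binomial interval 2.70 to 3.39%).

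RNA and open chromatin were measured in the same droplets, and both libraries came from the small intestine of 1 mouse, aged 55 weeks. Its genotype was a TrnA mutation load of 73%, TrnA being the alanine tRNA gene of mitochondrial DNA (mtDNA), and every cell described here shares that genotype. Cells had been stained for CD45, CD31, TER-119 and CD326 before sorting, per the labels' protocols, and the gates are not given in the sources used here. There is 1 animal and 1 library per assay, so no test was possible, differences are given as ratios, and intervals cover counting error only. The comparison groups were 1542 crypt progenitors (at least 6 UMIs of Lgr5, Smoc2, Slc12a2, Mki67, Top2a, Cenpe and Knl1) and 2352 enterocytes. The enterocytes were 930 tip cells and 385 segment cells, which met the 2 gates that left cells out above, and 1037 other absorptive cells (at least 6 UMIs of Apob, Slc5a1, Slc2a2, Slc6a19, Cd36 and Slc13a2).

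The intestinal epithelium renews from stem cells at the crypt base, whose daughters divide, leave the crypt and mature as absorptive enterocytes while they move up the villus. Genes are switched on in zones along that path, with antimicrobial genes low on the villus, nutrient uptake genes in its middle and purine handling genes at its tip. Gasdermins are proteins that can form pores in membranes, and the gasdermin C genes of the mouse lie side by side in a cluster and are known in intestinal epithelium as targets of type 2 cytokines. Car4 is a membrane-anchored carbonic anhydrase. The question was whether these cells are early enterocytes, read from their place between progenitors and enterocytes in RNA and in open chromatin. Peaks are the readout that the choice of cells did not use.

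The 8 genes chose the cells, so their levels are a description. Ces1f, a carboxylesterase, stood at 344 CPM (95% exact Poisson interval 317 to 372) in gasdermin C and Car4 rich cells, 25.6 in progenitors and 95.04 in enterocytes. Among enterocytes it was at 47.1 in tip, 49.2 in segment and 164 in other absorptive cells. CPM are UMIs of a gene per 1000000 nuclear-encoded UMIs of the group. Cyp4f40, a cytochrome P450, stood at 287 CPM in the chosen cells, 51.1 in progenitors and 48.1 in enterocytes. Together these 2 genes gave 22.6% and 18.9% of the UMIs by which the cells were chosen. Slc28a3, a nucleoside transporter, was at 216 CPM in the chosen cells, 46.5 in progenitors and 35.7 in enterocytes. Car4 was at 199 CPM in the chosen cells, 27.6 in progenitors and 33.5 in enterocytes, and Ptpn22, a tyrosine phosphatase best known from lymphocytes, at 169 CPM in the chosen cells, 14.8 in progenitors and 34.3 in enterocytes. Lymphocyte markers were low in the chosen cells, with 7 of 10 at 0 and a summed level of 5.68 CPM, against 15.5 in progenitors and 14.2 in enterocytes. Ms4a18, a membrane protein of the MS4A family, was at 90.2 CPM in the chosen cells, 11.1 in progenitors and 27.2 in enterocytes.

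Gsdmc2 was at 148 CPM (131 to 167) in gasdermin C and Car4 rich cells, 16.2 (13.0 to 19.8) in progenitors and 9.53 (6.89 to 12.8) in enterocytes. Gsdmc3 was at 68.1 CPM in the chosen cells, 5.97 in progenitors and 1.99 in enterocytes. The namesake genes were not in every cell: 135 of the 299 cells had a UMI of Gsdmc2 or Gsdmc3 and 164 had none. Cells held a UMI of 4 of the 8 genes most often (96 cells), and 1 cell held all 8. The 3 gasdermin C genes with RNA are near-identical copies, so reads could be split among them and their separate levels are uncertain. Gsdmc, of the same family, had 0 UMIs in all 3 groups, with a 95% upper bound of 2.09 CPM in the chosen cells.

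Goblet-rich cells were taken as a measure of the background of free RNA. That goblet cells lack these genes was assumed and not tested, and 7 of the chosen cells are among the goblet-rich cells. A UMI of Cyp4f40 was found in 77.6% of gasdermin C and Car4 rich cells, 15.6% of progenitors and 7.95% of enterocytes, against 3.82% of 1256 goblet-rich cells. For Gsdmc2 the level in goblet-rich cells was 8.95 CPM (5.85 to 13.1) and for Gsdmc4 14.5 CPM (10.4 to 19.5). Gsdmc2 in enterocytes, and Gsdmc4 in progenitors (14.2) and enterocytes (12.2), were thus not above goblet-rich cells beyond counting error. For Car4 the shares were 63.5% of the chosen cells, 8.75% of progenitors and 5.65% of enterocytes, against 3.82% of goblet-rich cells. The median depth was 5314 nuclear-encoded UMIs per cell in the chosen cells, 3183 in progenitors, 1337.5 in enterocytes and 1778.5 in goblet-rich cells. A minimum of UMIs favours deep cells, so 3.03% is not the share of all cells that use these genes.

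**Figure D1:**
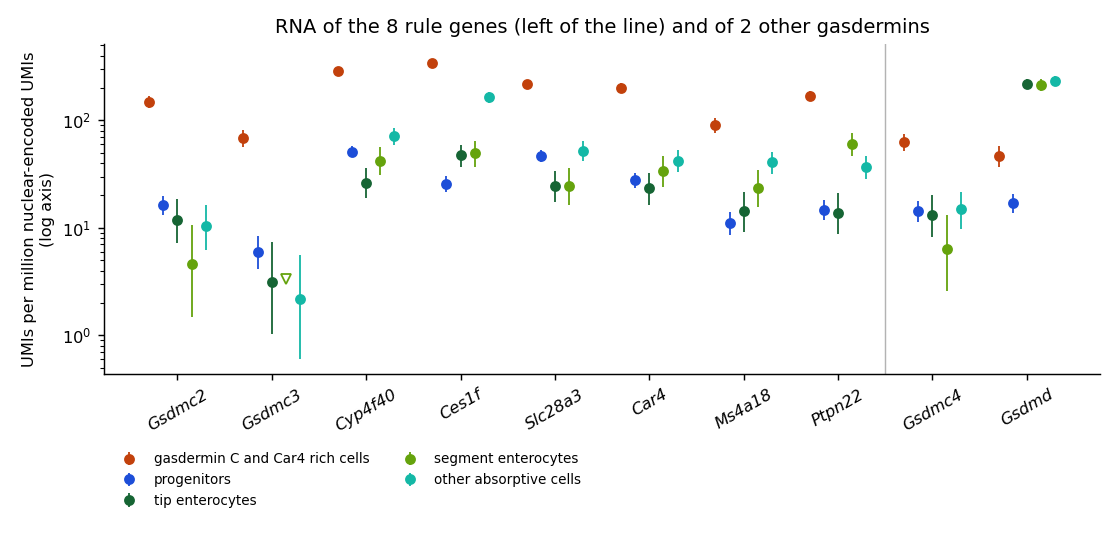
Levels of the 8 genes that chose the cells, and of Gsdmc4 and Gsdmd, in CPM on a log axis. Points are sums over the cells of a group, bars are 95% exact Poisson intervals, and the open triangle marks the upper bound where 0 UMIs were counted. Gsdmc4 is highest in the gasdermin C and Car4 rich cells (62.4 CPM) and Gsdmd in the enterocyte sets.

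At the edge of the rule, 142 of the 299 cells had 6 or 7 UMIs of the 8 genes and 82 had 10 or more, up to 32. Outside it, 327 kept cells had 4 or 5 UMIs. Their median position in chromatin (an index from 0 at the progenitor end to 100 at the enterocyte end) was 49.1, against 48.7 for cells with 6 or 7 UMIs. The 25 cells left out by the tip genes lay at 58.2 and the 22 others left out by the segment genes at 67.0, with median doublet scores of 0.183 and 0.141, against 0.0456 for the chosen cells. Of the 299 cells, 69 also reached 6 UMIs of the progenitor genes, 121 reached 6 UMIs of the absorptive genes, 26 reached both and 135 reached neither. The median doublet score was 0.109 in the 69 cells and 0.0409 in the other 230, and 11.4% of all chosen cells were among the highest 8% of scores, against 5.97% of progenitors and 9.35% of enterocytes. The part of doublets in these values was not tested.

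Promoter windows from RefSeq (build GRCm38.p6, which is mm10), from 250 bases before to 50 after the gene start, are printed for 4 of the genes to show what is read at their starts. Windows were found for 6 of the 8 genes, and those of Gsdmc2 and Ces1f were not. Sequences run 5′ to 3′ on the gene's strand, and capitals mark matches on either strand to AGATAA (the GATA factor motif), TTTATNG (a CDX motif) and GTTAAT (an HNF1 motif), motifs of factor families used across the intestinal epithelium. None of the capitals overlap. Of all 32851 RefSeq windows of this length, 11.2% hold AGATAA, 10.9% hold TTTATNG and 7.10% hold GTTAAT. CAAAGTCCA (an HNF4 motif, in 0.475% of windows) was also searched and is in none of these 4, but in 1 of the 2 windows of Ptpn22, which are not printed. A STAT motif (in 6.95% of windows) was searched too and is in none of the windows found.
Cyp4f40, chr17:32658636-32658935, plus strand: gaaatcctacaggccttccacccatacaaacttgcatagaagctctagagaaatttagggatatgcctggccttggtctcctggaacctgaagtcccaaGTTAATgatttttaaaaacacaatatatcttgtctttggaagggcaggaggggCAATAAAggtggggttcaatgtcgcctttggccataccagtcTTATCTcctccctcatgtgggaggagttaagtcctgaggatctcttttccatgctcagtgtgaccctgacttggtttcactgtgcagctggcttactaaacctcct
Ms4a18, chr19:11017914-11018213, minus strand: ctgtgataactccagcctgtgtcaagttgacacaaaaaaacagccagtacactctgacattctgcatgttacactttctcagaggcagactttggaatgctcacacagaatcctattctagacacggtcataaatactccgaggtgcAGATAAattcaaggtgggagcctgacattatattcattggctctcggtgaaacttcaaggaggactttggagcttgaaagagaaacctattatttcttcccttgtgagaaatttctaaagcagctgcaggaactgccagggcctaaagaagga
Car4, chr11:84957504-84957803, plus strand: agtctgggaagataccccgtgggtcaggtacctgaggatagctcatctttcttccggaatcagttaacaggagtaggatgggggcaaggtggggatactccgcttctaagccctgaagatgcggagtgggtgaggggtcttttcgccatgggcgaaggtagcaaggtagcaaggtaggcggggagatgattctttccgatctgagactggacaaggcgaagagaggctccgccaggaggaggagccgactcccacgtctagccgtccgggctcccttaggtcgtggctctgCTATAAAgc
Gsdmc3, chr15:63878509-63878808, minus strand: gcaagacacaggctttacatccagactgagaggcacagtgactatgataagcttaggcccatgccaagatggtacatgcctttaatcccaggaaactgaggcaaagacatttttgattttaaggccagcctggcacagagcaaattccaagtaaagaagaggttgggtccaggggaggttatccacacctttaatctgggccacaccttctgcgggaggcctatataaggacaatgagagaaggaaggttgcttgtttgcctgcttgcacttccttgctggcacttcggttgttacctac
The Cyp4f40 window holds all 3 motifs once, the Ms4a18 window AGATAA once, the Car4 window TTTATNG once, after the start, and the Gsdmc3 window none. The first 3 windows overlap a deposited peak and the Gsdmc3 window does not.

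Open chromatin at these starts differed less between groups than the RNA did. The peak over the Cyp4f40 start (chr17:32658328-32659178) took 45.9 FPM (fragments per 1000000 fragments in peaks) in gasdermin C and Car4 rich cells (40.7 to 51.6), 40.9 in progenitors (38.3 to 43.6) and 23.96 in enterocytes (21.9 to 26.2). The Ms4a18 start (chr19:11017611-11018412) took 23.8 in the chosen cells, 19.6 in progenitors and 9.07 in enterocytes, and the Car4 start (chr11:84957374-84958305) 5.55 FPM in the chosen cells, 3.76 in progenitors and 4.03 in enterocytes. At the Cyp4f40 and Ms4a18 starts the chosen cells lay close to progenitors and above enterocytes. A second Ms4a18 peak, 4118 bases from the start (chr19:11022150-11023064), showed the other order, with 32.8 in the chosen cells, 13.7 in progenitors and 34.1 in enterocytes. At Ces1f the same held 981 bases from the start (chr8:93277866-93278765), with 13.5 in the chosen cells, 4.78 in progenitors and 13.1 in enterocytes.

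Over all peaks within 5 kb of the gene starts, fragments were 1.74 times those of progenitors and 1.28 times those of enterocytes at Ces1f. They were 1.58 times those of progenitors and 1.23 times those of enterocytes at Ms4a18, and 1.27 and 1.58 times at Car4. Other absorptive cells alone came close to the chosen cells at 2 of these loci, with overlapping intervals. They were at 35.5 FPM against 36.7 in the chosen cells at Ces1f, and at 78.9 against 82.3 at Ms4a18. Over progenitors and over enterocytes the ratios were 1.26 and 1.90 at Cyp4f40, 1.22 and 2.48 at Slc28a3, and 0.977 and 1.06 at the single peak near Ptpn22, whose intervals include no difference. The 13 peaks of the gasdermin C cluster (chr15:63775971-63925453) summed to 36.2 FPM in gasdermin C and Car4 rich cells (31.6 to 41.3), 28.1 in progenitors and 14.7 in enterocytes (13.1 to 16.4). The peak list holds 0 peaks within 5 kb of Gsdmc3 and the 1 peak near Gsdmc2 held 12 fragments, in a region of near-identical copies.

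**Figure D2:**
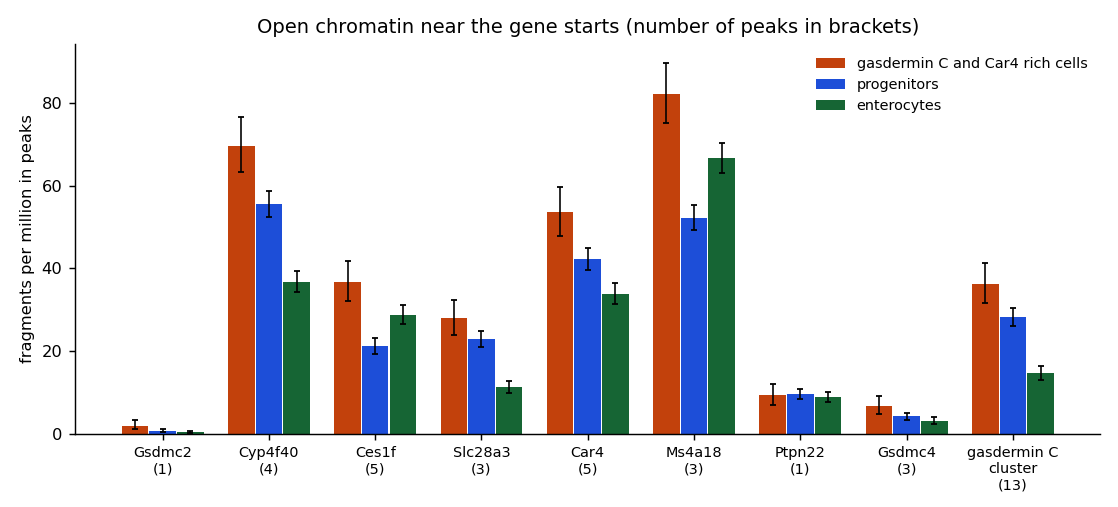
FPM, summed over the deposited peaks within 5 kb of each gene start, or within the gasdermin C cluster. Bars are sums over the cells of a group and error bars are 95% exact Poisson intervals. The gasdermin C and Car4 rich cells are highest at 8 of the 9 loci drawn, and near Ptpn22 the 3 groups lie between 8.79 and 9.52.

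In chromatin as a whole, the gasdermin C and Car4 rich cells lay between progenitors and enterocytes. Peaks at least 2-fold apart between enterocytes and progenitors were found first, without the chosen cells: 21897 enterocyte-high and 21620 progenitor-high of 111549 peaks. Enterocyte-high peaks took 10.1% of the peak fragments of the chosen cells, 5.88% of those of progenitors and 20.4% of those of enterocytes. Progenitor-high peaks took 10.6% of the fragments of the chosen cells, 16.2% of those of progenitors and 5.71% of those of enterocytes. The direction between progenitors and enterocytes is fixed by the choice of peaks, and only the place of the chosen cells is read. These cells lay between the 2 groups at 79.5% of enterocyte-high and 77.5% of progenitor-high peaks. The peaks were chosen from the counts of those 2 groups, so counting error sets the 2 ends further apart. A group left out of the choice then falls between them more often. The part of this in the shares and percentages was not tested.

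A position index per cell was taken as the percent of class fragments that fell in enterocyte-high peaks. Its median was 50.0 in gasdermin C and Car4 rich cells (quartiles 41.4 and 58.0), 24.3 in progenitors (19.5 and 31.8) and 88.7 in enterocytes (81.3 and 91.6). Of the 299 cells, 283 lay between the upper quartile of progenitors and the lower quartile of enterocytes, 3 lay below the progenitor median and 0 above the enterocyte median. The ranges overlapped: 129 of the 299 cells lay below the 95th percentile of progenitors (47.2) and 102 above the 5th percentile of enterocytes (54.8). Enterocytes were the shallowest group, and the order of medians held with at least 3000 nuclear-encoded UMIs in every group. There 245 chosen cells had a median of 50.2, 847 progenitors 25.8 and 400 enterocytes 71.0. In these deep cells the quartiles overlapped, the upper one of the chosen cells being 59.6 and the lower one of enterocytes 57.7. The same index from RNA, without the genes of any gate, gave medians of 46.8 in the chosen cells, 20.3 in progenitors and 84.6 in enterocytes.

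**Figure D3:**
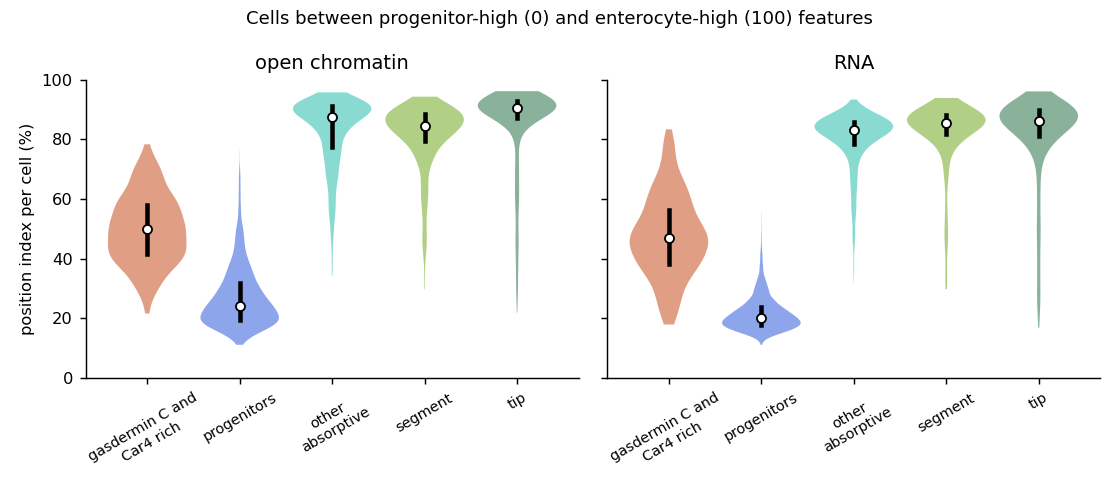
Position index per cell from peaks (left) and from genes (right), from 0 (all class counts in progenitor-high features) to 100 (all in enterocyte-high features). Shapes are densities of cells, bars are quartiles and white points are medians. The gasdermin C and Car4 rich cells have medians of 50.0 in chromatin and 46.8 in RNA, between progenitors and all 3 enterocyte sets.

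The 8 genes were then followed along chromatin in all 8081 kept cells outside a filter on secretory markers, cut into 10 bins of position from peaks. The cells that set the peak classes had been kept under 6 UMIs of the 8 genes, so RNA of these genes entered the axis through that limit. Gsdmc2, Gsdmc3, Cyp4f40, Ces1f and Slc28a3 were highest in bin 4, and Car4, Ms4a18 and Ptpn22 in bin 5. Gsdmc2 stood at 7.38 CPM in bin 1, 87.8 in bin 4, 42.9 in bin 5 and 4.85 in bin 6. Car4 stood at 7.79 in bin 1, 116 in bin 4, 120 in bin 5 and 36.4 in bin 6, so its values in bins 4 and 5 did not differ beyond counting error. Cyp4f40 (169 in bin 4 and 159 in bin 5) and Ces1f (203 in bin 4 and 186 in bin 5) also had overlapping intervals in these bins. Ms4a18 came later, with 16.6 in bin 3, 47.5 in bin 4 and 74.6 in bin 5. Ces1f stayed higher than the others toward the enterocyte end, at 54.3 CPM in bin 10.

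The same bins place the known stages of the path. Lgr5, the stem cell receptor, was highest in bin 1 (624 CPM) and Mki67, a marker of dividing cells, in bin 2 (419). Sis, the sucrase-isomaltase of the brush border, was highest in bin 6 (9011), and Apob, the chylomicron apolipoprotein, in bin 10 (4782). The 8 genes therefore peaked after the stem and cycling genes and before Sis. Bins 1 to 5 had median depths of 2425 to 2702 nuclear-encoded UMIs and bins 6 to 10 of 646.5 to 931. The chosen cells numbered 59, 123 and 91 in bins 3, 4 and 5, and 12 in the other bins together. Without them, the summed level of the 8 genes was highest in bin 5 (626 CPM) and bin 4 (609), against 93.2 in bin 1 and 129 in bin 10. The 47 cells left out by the tip or segment genes were not removed here, except where they met the secretory filter. They too had reached 6 UMIs of the 8 genes. Their median positions (58.2 and 67.0) lie within bin 5 (55.4 to 76.8), and their part in these levels was not tested.

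**Figure D4:**
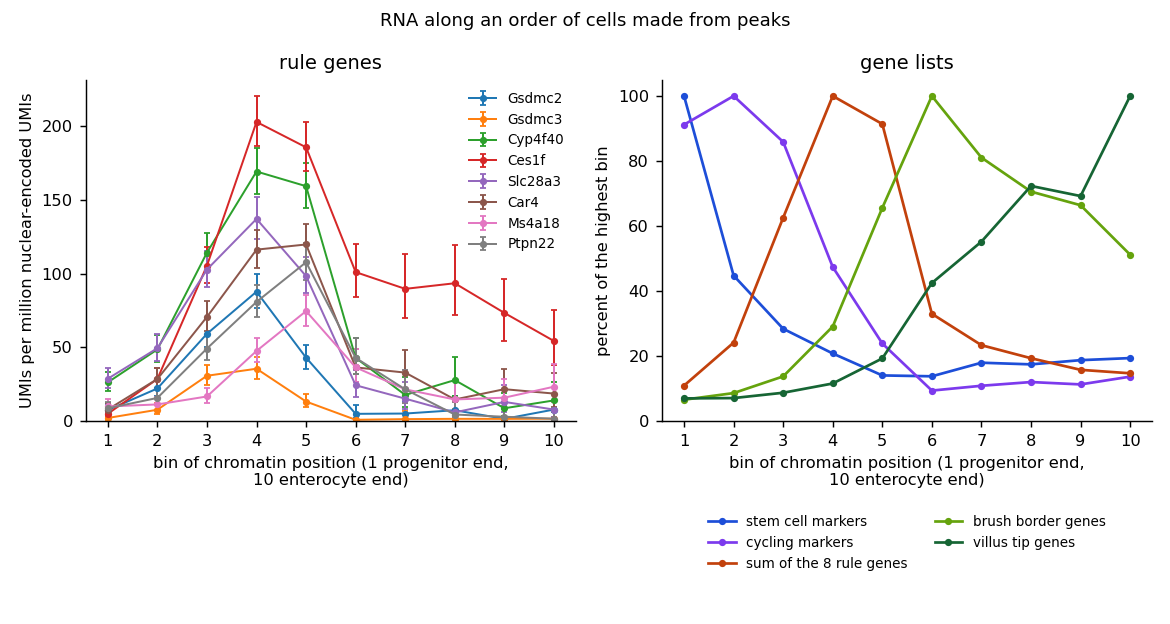
RNA in 10 bins of kept cells ordered by chromatin position from the progenitor end (bin 1) to the enterocyte end (bin 10). Left, the 8 genes in CPM with 95% exact Poisson intervals; right, summed gene lists as percent of their highest bin. The 8 genes are highest in bins 4 and 5, after stem cell and cycling markers and before brush border and villus tip genes.

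Against progenitors, brush border and lipid genes were higher and stem, cycling and Wnt genes lower. Progenitors were chosen by stem and cycling genes and a limit on absorptive genes, so these directions are partly fixed by that choice. The gate genes themselves are left out of the gene counts. Of 10354 genes with at least 50 UMIs over both groups, 649 (6.27%) were at least 2-fold higher in gasdermin C and Car4 rich cells and 1369 (13.2%) at least 2-fold lower. The median gene had a log2 ratio of -0.12. All 10 measured stem cell markers were at least 2-fold lower, and their list stood at 679 CPM in the chosen cells, against 3147 in progenitors. In enterocytes the stem cell list stood at 903 CPM, so per nuclear-encoded UMI the chosen cells were not between the 2 groups. Its log2 ratio over enterocytes was -0.41 per nuclear-encoded UMI and 0.51 per all UMIs. The list was at 1264 CPM in tip, 755 in segment and 678 in other absorptive cells. Olfm4, a secreted protein of crypt base cells, was at 261 CPM in the chosen cells against 1641 in progenitors, and Ascl2, a transcription factor of stem cells, at 1.70 in the chosen cells against 12.8 in progenitors. Of the 14 measured cycling markers, 12 were at least 2-fold lower and 0 higher, with a list level of 669 CPM in the chosen cells against 2324 in progenitors. The cycling list was at 467 CPM in enterocytes, with 713 in tip, 436 in segment and 272 in other absorptive cells. Among Wnt targets and receptors 7 of 11 were lower and 0 higher, Cd44 being at 36.9 CPM in the chosen cells against 195 in progenitors and Axin2 at 29.5 in the chosen cells against 137 in progenitors.

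Brush border genes were higher, with 19 of 23 measured genes at least 2-fold above progenitors and 0 below. Their median log2 ratio was 1.97. Slc9a3, the sodium-hydrogen exchanger of the apical membrane, was at 203 CPM in the chosen cells and 13.3 in progenitors, and Sis at 3582 in the chosen cells and 280 in progenitors. Mep1b, a meprin protease, was at 516 in the chosen cells and 55.3 in progenitors. Of 21 mature enterocyte markers 15 were higher and 0 lower, and of 22 lipid uptake and chylomicron genes 14 were higher and 0 lower. Il18, an inflammasome cytokine, was at 100.5 CPM in the chosen cells and 10.9 in progenitors. Slc5a11, an inositol transporter, had the highest ratio of the named genes (60.2 CPM in the chosen cells and 3.86 in progenitors, a log2 ratio of 3.96). Acss3, a mitochondrial acyl-CoA synthetase, had the lowest, with 1 UMI in the chosen cells.

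Against enterocytes, lipid and villus tip genes were lower on both scales of RNA used, and brush border genes only per nuclear-encoded UMI. Of 9457 genes measured, 913 (9.65%) were at least 2-fold higher in gasdermin C and Car4 rich cells and 801 (8.47%) at least 2-fold lower, and the median gene had a log2 ratio of 0.21. This split moves with the scaling: it was 491 higher and 1051 lower when centred on the median gene, and 5539 higher and 319 lower per all UMIs, with a median mtDNA-encoded share of UMIs of 51.3% in the chosen cells and 74.5% in enterocytes. With at least 3000 nuclear-encoded UMIs in every group it was 188 higher and 447 lower. Brush border genes were lower in 15 of 25 cases and higher in 1, with a list level of 9849 CPM in the chosen cells and 19530 in enterocytes. The list stood at 9033 CPM in tip, 26491 in segment and 24508 in other absorptive cells, so it was not lower than in tip cells. Per all UMIs its log2 ratio over enterocytes was -0.067, against -0.99 per nuclear-encoded UMI. Lipid genes were lower in 13 of 22 cases and higher in 0, and stayed lower per all UMIs (a log2 ratio of -1.15, against -2.07). The other absorptive cells were chosen by absorptive genes, Apob and Cd36 among them, which can raise lipid and brush border genes in that set. The lipid list stood at 17249 CPM in tip, 16586 in segment and 14661 in other absorptive cells. Apoa1, an apolipoprotein of chylomicrons, was at 388 CPM in the chosen cells and 4311 in enterocytes, and Apoa4 at 206 in the chosen cells and 2524 in enterocytes. Fabp2, the intestinal fatty acid binding protein, was at 456 in the chosen cells and 3217 in enterocytes. Sis differed less, at 3582 CPM in the chosen cells and 6222 in enterocytes.

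Of 7 measured villus tip genes 5 were at least 2-fold below enterocytes and 0 above, Krt20 being at 193 CPM in the chosen cells against 997 in enterocytes and Klf4 at 53.9 in the chosen cells against 346 in enterocytes. Per all UMIs the list's log2 ratio over enterocytes was -1.42, against -2.34 per nuclear-encoded UMI. Against progenitors the same list stood at 963 CPM in the chosen cells against 792 in progenitors. Slc15a1, the peptide transporter, was at 60.7 in the chosen cells against 767 in enterocytes, Enpp3, an ectonucleotidase, at 81.7 in the chosen cells against 1340 in enterocytes, and Prdm1, a transcription factor, at 1.14 in the chosen cells against 51.4 in enterocytes. Pmp22 had the lowest log2 ratio of the named genes (-6.23, from 5 UMIs in the chosen cells). The tip set was defined by other genes of the tip, so its share of the enterocyte sum enters these values: Klf4 was at 514 CPM in tip, 277 in segment and 241 in other absorptive cells.

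Genes of the villus base were near the level of the pooled enterocytes per nuclear-encoded UMI (a log2 ratio of -0.088) and higher per all UMIs (0.83). The enterocyte sets differed, with 4831 CPM in tip, 8636 in segment and 7250 in other absorptive cells. Over these sets the log2 ratios per nuclear-encoded UMI were 0.39, -0.45 and -0.19. Their list stood at 6334 CPM in gasdermin C and Car4 rich cells, 3320 in progenitors and 6733 in enterocytes, with 7 of 12 genes at least 2-fold above progenitors and 3 of 12 at least 2-fold below enterocytes. Reg3g, an antimicrobial lectin, was at 953 CPM in the chosen cells, 211 in progenitors and 1030 in enterocytes. Reg1 was at 61.3 in the chosen cells, 13.0 in progenitors and 81.3 in enterocytes, while Gsdmd, the gasdermin cut by inflammatory caspases, was at 46.5 in the chosen cells, 16.9 in progenitors and 224 in enterocytes. The list of immature distal enterocyte markers stood at 2183 CPM in the chosen cells, 814 in progenitors and 2233 in enterocytes, and its log2 ratio over enterocytes was 0.89 per all UMIs. Gsdmd and Gsdme (63.0 CPM in the chosen cells, 43.6 in progenitors and 212 in enterocytes) were thus higher in enterocytes than in the other 2 of these groups, unlike Gsdmc2, Gsdmc3 and Gsdmc4. Gsdme was at 306 CPM in tip, 292 in segment and 81.1 in other absorptive cells, and at 272 in goblet-rich cells.

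**Figure D5:**
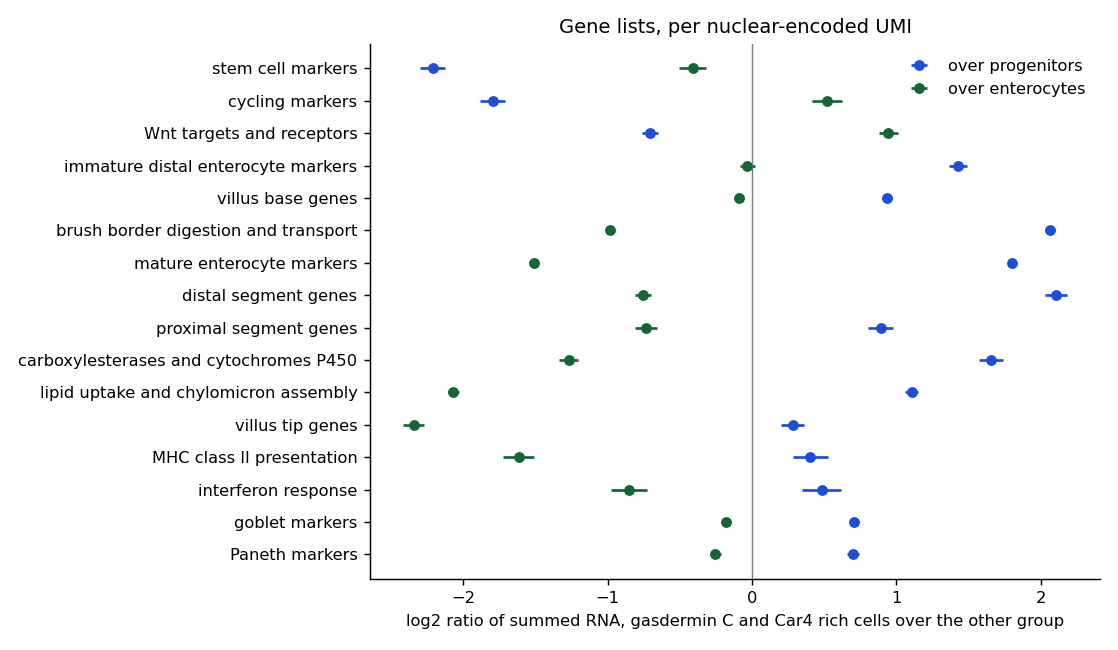
Log2 ratio of the summed RNA of fixed gene lists, per nuclear-encoded UMI, in gasdermin C and Car4 rich cells over progenitors (blue) and over enterocytes (green), with 95% exact intervals. Over progenitors, stem cell markers stand at -2.21 and brush border genes at 2.06, and over enterocytes villus tip genes stand at -2.34.

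Few genes were above all other groups. Leaving out the rule and gate genes, of 6110 genes with at least 50 UMIs in the chosen cells, 15 (0.245%) were at least 2-fold above progenitors and each of the 3 enterocyte sets, and 12 of these are named. Gsdmc4, which the rule did not use, was at 62.4 CPM in gasdermin C and Car4 rich cells, 14.2 in progenitors and 12.2 in enterocytes, in a cluster where reads of copies may be shared. Bcl2l15, a member of the Bcl2 family of cell death regulators, was at 148 in the chosen cells, 35.7 in progenitors and 43.2 in enterocytes. Its gene (chr3:103831036-103854618) lies next to Ptpn22 (chr3:103856575-103912252), one of the rule genes. Krt19, a keratin, was at 736 in the chosen cells, 309 in progenitors and 304 in enterocytes, and was found in 90.6% of the chosen cells. Mal2, a protein of apical transcytosis, was at 257 in the chosen cells, 108 in progenitors and 97.3 in enterocytes.

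Vstm5, a membrane protein of the immunoglobulin superfamily, was at 221 CPM in the chosen cells, 88.7 in progenitors and 64.9 in enterocytes. Abat, the GABA transaminase, was at 170 in the chosen cells, 73.1 in progenitors and 56.3 in enterocytes, and Bmp3, a secreted BMP family protein, at 52.2 in the chosen cells, 21.8 in progenitors and 10.6 in enterocytes. Gcnt4, a glycosyltransferase, was at 94.8 in the chosen cells, 28.5 in progenitors and 41.0 in enterocytes, and Fcsk, the fucose kinase, at 43.1 in the chosen cells, 19.0 in progenitors and 12.2 in enterocytes. Scpep1, a serine carboxypeptidase, and Rflnb, an actin regulator, were at 35.2 and 60.7 CPM in the chosen cells. Lyz1, a Paneth cell lysozyme, also met the rule for named genes, but 77.8% of its 1282 UMIs lay in the 14 chosen cells that met the secretory filter, and 34.9% in 1 cell. Without those 14 cells its log2 ratio was -0.26 over progenitors and -0.63 over enterocytes. For each of the 11 others, at most 6.69% of the UMIs lay in these 14 cells.

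Among the factors of the intestinal list, Nr5a2, a nuclear receptor, was at 447 CPM in the chosen cells, 347 in progenitors and 110 in enterocytes. Maf was at 257 in the chosen cells, 50.9 in progenitors and 698 in enterocytes. Nr5a2 was thus near its progenitor level, while Maf lay between the 2 groups. Of 24 measured factors 3 were at least 2-fold above enterocytes and 4 below, and of 22 measured against progenitors 3 were above and 1 below. Over all genes measured, 9.65% were above enterocytes and 8.47% below, and 6.27% were above progenitors and 13.2% below. MHC class II genes (455 CPM in the chosen cells, 344 in progenitors and 1395 in enterocytes) and interferon response genes (359 in the chosen cells, 257 in progenitors and 648 in enterocytes) were lower than in enterocytes in 4 of 7 and 9 of 13 cases, with 0 higher in either list, against 8.47% lower over all genes. Per all UMIs the log2 ratio over enterocytes was -0.70 for MHC class II genes and 0.069 for interferon response genes, so the direction of the interferon list turns with the scaling. The mRNAs encoded by mtDNA made up 5.07% of all UMIs of the chosen cells, 4.19% of those of progenitors and 13.9% of those of enterocytes.

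Other lists on the gasdermin C, Car4, Ces1f, Cyp4f40 and Slc28a3 families showed mixed directions. Of 4 other measured carbonic anhydrases 0 were at least 2-fold above progenitors and 2 below, Car12 being at 14.8 CPM in the chosen cells against 53.2 in progenitors and Car8 at 31.8 in the chosen cells against 92.0 in progenitors. Of 17 other carboxylesterases and cytochromes P450 10 were above progenitors and 1 below, and 8 were below enterocytes and 1 above. Cyp4f14 was at 240 CPM in the chosen cells, 40.0 in progenitors and 403 in enterocytes. The nucleoside transporter Slc28a1 was at 35.8 in the chosen cells, 4.22 in progenitors and 113 in enterocytes. The list of type 2 cytokine receptors and targets was at 493 CPM in the chosen cells, 257 in progenitors and 487 in enterocytes, and the squamous Sprr2a genes that it holds were near 0 in the chosen cells, with 1 UMI of Sprr2a2 and 2 of Sprr2a3.

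Of 87567 peaks with at least 50 fragments over both groups, 5399 (6.17%) were at least 2-fold higher in gasdermin C and Car4 rich cells than in progenitors and 7759 (8.86%) lower. Against enterocytes, 7425 of 85541 peaks (8.68%) were higher and 12740 (14.9%) lower. With at least 3000 nuclear-encoded UMIs in every group, 1151 were higher and 3443 lower of 57927. Among peaks with at least 50 fragments in the chosen cells, the one furthest above both progenitors and enterocytes, at chr6:42260183-42260935, lies 1034 bases from the Tmem139 start and took 19.6 FPM in the chosen cells (16.2 to 23.4), 4.87 in progenitors and 3.70 in enterocytes. The next lies 2039 bases from the start of Mal2 (chr15:54573232-54573933) and took 9.47 FPM in the chosen cells, 2.996 in progenitors and 2.64 in enterocytes. Mal2 was also one of the genes above all groups in RNA. A peak 130569 bases from Nfkbiz took 10.8 FPM in the chosen cells, 3.44 in progenitors and 2.64 in enterocytes. One 9407 bases from Gal took 8.49 FPM in the chosen cells, 2.82 in progenitors and 2.26 in enterocytes, and one 15 bases from Fut7 took 10.6 in the chosen cells, 3.85 in progenitors and 3.46 in enterocytes.

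The cells were not uniform. Ordered by chromatin position and cut at the quartiles into groups of 75, 75, 75 and 74 cells, Gsdmc2 stood at 168, 203, 119 and 93.9 CPM and Gsdmc3 at 92.2, 87.2, 46.3 and 40.9. Car4 ran the other way, at 117, 216, 222 and 253, as did Ms4a18, at 39.8, 56.7, 112 and 164. Cycling markers were at 1408, 599, 351 and 209 CPM and brush border genes at 4348, 6605, 11300 and 18320. Il18 was at 37.7, 78.4, 112 and 185. Median depths were 5733, 5448, 4159 and 5358.5 nuclear-encoded UMIs. All 4 groups hold only cells that reached 6 UMIs of the rule genes together, so where 1 rule gene is low others must be high, and the opposite orders of Gsdmc2 and Gsdmc3 against Car4 and Ms4a18 are a description of the chosen cells that the rule itself can give. Il18, cycling and brush border genes were not in the rule.

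Goblet and Paneth markers were carried by few of the chosen cells. Goblet markers were at 3971, 13496, 2978 and 3479 CPM over these position groups, and the 14 cells that met the secretory filter held 56.0% of the goblet UMIs and 58.1% of the Paneth UMIs of all 299. The median share of goblet markers per cell was 0.178% in gasdermin C and Car4 rich cells, 0.253% in progenitors and 0.679% in enterocytes. Of 10 tuft markers 1 was at 0, and the list stood at 14.2 CPM in the chosen cells, 19.1 in progenitors and 36.1 in enterocytes. Of 8 stromal and endothelial markers 7 were at 0 in the chosen cells.

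Against other cells at the same chromatin position, few genes differed upward. Between the lower and upper quartile of their positions (41.4 and 58.0) there were 139 chosen cells outside the secretory filter and 772 other cells outside it. The limits on tip and segment genes applied to the chosen cells only, so the other cells can include cells past them. The part of this in the genes lower in the chosen cells was not tested. Of 7999 genes measured, 24 (0.3%) were at least 2-fold higher in the chosen cells and 439 (5.49%) lower. Median depths differed, at 4814 nuclear-encoded UMIs in the chosen cells and 2426 in the other cells. With at least 3000 nuclear-encoded UMIs, 98 chosen and 280 other cells remained, and 34 genes were higher and 397 lower of 6873. Among those with at least 100 UMIs over both groups and no clone name, Kcnb2 and Bnip5 had the lowest ratios. Kcnb2 was at 5.22 CPM in the chosen cells against 57.8 in the other cells and Bnip5 at 5.22 against 42.4, each from 4 UMIs in the chosen cells. Of 55976 peaks 408 (0.729%) were higher and 1775 (3.17%) lower. The 8 rule genes were 2.30 to 3.71 times higher, as their choice requires, and the other cells still held 150.7 CPM of Ces1f, 126 of Cyp4f40 and 79.2 of Car4. Of the 12 named genes above, 3 were at least 2-fold higher here: Bmp3 (56.1 CPM in the chosen cells against 21.4 in the other cells), Bcl2l15 (177 in the chosen cells against 83.5 in the other cells) and Scpep1 (35.2 in the chosen cells against 17.6 in the other cells). Sis was at 3247 CPM in the chosen cells against 2626 in the other cells.

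Apoa1 of the enterocyte end and Olfm4 of the progenitor end were both lower in the chosen cells than in the other cells at that position. Apoa1 was at 254 CPM in the chosen cells against 755 in the other cells and Olfm4 at 226 in the chosen cells against 563 in the other cells. The brush border genes Mep1b and Slc9a3 and the lectin Reg3g went the other way, as did Sis. Mep1b was at 514 CPM in the chosen cells against 343 in the other cells, Slc9a3 at 197 against 133 and Reg3g at 942 against 649. Doublet scores differed as well: 9.35% of the chosen cells and 22.7% of the others were among the highest 8% of scores of kept cells. Without those cells, 17 genes were higher and 276 lower of 6883, and Apoa1 was at 219.9 in the chosen cells against 505 in the other cells and Olfm4 at 174 CPM in the chosen cells against 388 in the other cells. The part of doublets in the remaining difference was not tested.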

How the data were processed

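The deposited matrix holds raw counts, per the file headers and the submitters' processing notes a Cell Ranger ARC 2.0.2 output on mm10: UMIs for 55401 genes and counts in 146191 peaks. Of peak values above 0, 87.6% were even, so each was halved and rounded up to fragments. Levels are sums over the cells of a group per 1000000 nuclear-encoded UMIs (CPM), or per 1000000 fragments in peaks (FPM), with exact Poisson or binomial intervals at 95%. A feature was measured with at least 50 UMIs or fragments over both groups and is given as higher or lower from 2-fold. A group at 0 is set to a floor of 3 counts over the group. No test was run. Progenitors had under 6 absorptive UMIs, other absorptive cells under 6 progenitor UMIs, and all comparison cells under 6 UMIs of the 8 rule genes. Comparison cells with goblet markers from 3% or Paneth markers from 5% of nuclear-encoded UMIs, or 5 or more UMIs of enteroendocrine or tuft markers, were left out.

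The cells, gates and gene lists were chosen with earlier results of these data known. All 406 list genes were found by symbol. Named genes are the rule genes, the 10 highest and 10 lowest ratios over each group (at least 100 UMIs, no clone names), of which a few are printed, the 12 with the highest smallest ratio over progenitors and 3 enterocyte sets, and up to 4 per list with the largest ratio. Lgr5, Mki67 and Apob, which are gate genes, and Gsdmc fall outside that rule and were chosen with their values seen. Scrublet (scanpy 1.11.5) marked 0 of 9872 cells at its automatic threshold of 0.625 and so has not worked: doublets remain. All 12363 barcodes are shared by both libraries.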

Additional observations from a re-analysis of the deposited data

How the results depend on the processing

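Under every alternative tried, the share of peak fragments of the chosen cells lay between those of progenitors and enterocytes, in both peak classes. The enterocyte-high and progenitor-high shares of the chosen cells were 10.5 and 11.2% from deposited peak counts, 2.88 and 1.09% with 4-fold classes, 9.98 and 10.5% in the 82 cells with 10 or more rule UMIs, and 10.1 and 10.5% without the 14 cells that met the secretory filter. They were 9.02 and 8.42% without cells above 80% mtDNA-encoded UMIs, 11.3 and 12.9% without the highest doublet scores and 9.19 and 8.53% from 1000 nuclear-encoded UMIs. In 2 alternatives chosen after seeing the data they were 10.95 and 12.7% without progenitor-panel cells in the tip and segment sets, and 5.99 and 3.74% from 3000 nuclear-encoded UMIs. The classes are remade in each setting, so levels are read against the comparison groups only. In each setting they come from the counts of those 2 groups, which favours a place between them. Genes at least 2-fold apart from enterocytes numbered 1714, 5858 per all UMIs, 7802 with no minimum and 635 from 3000 UMIs. Against progenitors they numbered 8534 with no minimum, where a few UMIs decide a ratio. Peaks at least 2-fold apart numbered 21045 against progenitors from deposited counts, 23714 against progenitors and 32477 against enterocytes from a minimum of 20 fragments, and 4594 against enterocytes from 3000 UMIs. Of 731 values of genes and lists over 9 settings, 450 moved by less than their counting interval and 276 by more. Another 5, at least 2-fold apart in the main setting, changed sign. Sign changes of values less than 2-fold apart are counted among the 450 and the 276. The villus base list over enterocytes is 1 of these, with a log2 ratio of -0.088 in the main setting and 0.83 per all UMIs. Lyz1 turned to log2 ratios of -1.16 and -1.62 (over progenitors and over enterocytes) without the highest doublet scores and -0.26 and -0.63 without the secretory cells. The enteroendocrine list turned to 0.050 over enterocytes from 3000 UMIs. The cause of these changes was not tested. The 2 libraries share their barcodes, so RNA and peaks are paired by cell. They come from 1 mouse, so there are no replicate animals and no test was run.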
